A study of Homo sapiens with 8 samples.

Results

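TXNIP, the α-arrestin genes ARRDC1, ARRDC2, ARRDC3 and ARRDC4, and the genes of the glucose-sensing factors MondoA (MLXIP) and ChREBP (MLXIPL) were followed across 8 arrays of A549 cells treated with a seed extract or with one of its components. These 7 genes were chosen by symbol, with earlier results of these data known. They were matched through the accession that the array design gives for each probe, among 19056 genes that could be matched. All 7 were on the array and all 7 passed the filter on low signals in both series. That filter kept 19046 genes with EEDS and all 19056 with helveticoside, so that passing it says little about a signal. A single probe represented each gene except MLXIP, which had 2.

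A549 is an established human lung carcinoma line. EEDS is the ethanol extract of Descurainia sophia seeds, and helveticoside is a cardiac glycoside, a class of compounds known for blocking the sodium pump. In the EEDS series, cells received the vehicle or 1.25, 5 or 20 μg/mL EEDS, and in the helveticoside series the vehicle or 3.75, 15 or 60 nM helveticoside. By the labels exposure lasted 48 h in all conditions, and the methods text gives a shorter time. Each of the 8 conditions had 1 array, hybridized with RNA pooled from 3 cultures, so that single doses have no replicate error and no test. Each series had its own vehicle control, and agent and series cannot be told apart.

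TXNIP binds and inhibits thioredoxin and, like its relative ARRDC4, limits glucose uptake. The ARRDC proteins carry arrestin folds and PPxY motifs, through which they recruit ubiquitin ligases of the NEDD4 family to membrane cargo. MondoA and ChREBP each pair with MLX, enter the nucleus when glucose phosphates accumulate, and bind carbohydrate response elements, with TXNIP and ARRDC4 among the best known MondoA targets.

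The TXNIP and ARRDC4 promoters are shown because these are the members that moved furthest and because both are textbook MondoA targets. The sequences are the 250 bases before the annotated start in RefSeq (GRCh38.p14), written 5′ to 3′ on the strand of the gene. For TXNIP (minus strand) this is chr1:145996580-145996829, and for ARRDC4 (plus strand) chr15:97960453-97960702. Capitals mark a match to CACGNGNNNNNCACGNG, a pair of E-box-like sites, in TXNIP and a match to the E-box CACGTG in ARRDC4.
TXNIP: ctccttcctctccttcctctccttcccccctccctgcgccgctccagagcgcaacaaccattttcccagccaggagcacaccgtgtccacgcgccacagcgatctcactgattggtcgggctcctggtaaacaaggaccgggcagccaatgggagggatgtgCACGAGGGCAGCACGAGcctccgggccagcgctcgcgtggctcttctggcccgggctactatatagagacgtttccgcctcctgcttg
ARRDC4: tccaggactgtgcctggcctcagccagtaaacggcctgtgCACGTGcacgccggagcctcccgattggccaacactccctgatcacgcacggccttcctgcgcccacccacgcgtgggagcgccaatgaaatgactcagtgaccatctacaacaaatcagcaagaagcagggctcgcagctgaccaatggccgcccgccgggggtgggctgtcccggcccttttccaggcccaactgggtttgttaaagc
The match in TXNIP, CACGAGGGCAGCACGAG, begins 88 bases before the start. The match in ARRDC4 begins 210 bases before it. Both strands were searched, and 16 of 34943 promoter windows of the same length (0.0458%) held the paired pattern, whereas 6.32% held CACGTG. The box bound by the factor NF-Y, CCAAT, occurred 2 times in the TXNIP window and 3 times in the ARRDC4 window, and 32.0% of all windows held at least 1 copy. A second TXNIP start that RefSeq lists held none of these patterns in its window. The windows of ARRDC1, ARRDC2, ARRDC3, MLXIP and MLXIPL held neither CACGTG nor the paired pattern. The paired pattern was written with the TXNIP sequence in view, and a match is a description of letters, not a measured site.

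Levels below are log2 quantile-normalized intensities, and ratios are log2 differences between a treated array and the vehicle control of its own series. Well above background refers to the call of the scanner software for a spot. The 2 vehicle controls are the only arrays of one condition, and across 19046 genes their log2 difference had an SD of 0.65, a spread that also holds any difference between the series. All 9 measured A549 markers (keratins, E-cadherin, AKR and NRF2-related genes among them) were well above background on every array, while of 8 markers of other cell types, CD3E of T cells and PECAM1 of endothelium were not. The other 6, PTPRC of leukocytes among them, were. Among the A549 markers, E-cadherin (CDH1) fell with both agents, with a log2 ratio of -2.70 at 20 μg/mL EEDS and -2.71 at 60 nM helveticoside (limma adjusted p for the dose trend = 0.0364 and 0.0452). Over the 9 markers the median log2 ratio was -0.98 at 20 μg/mL EEDS and -0.87 at 60 nM helveticoside. With each agent 4 of the 9 were over 2-fold lower (14.5% of all genes with EEDS and 12.8% with helveticoside). The part of these changes in the results was not tested.

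TXNIP had the highest ratio of the 7 genes at 1.25 and 5 μg/mL EEDS. In the EEDS series its level was 5.10 in the vehicle control, 6.67 at 1.25 μg/mL, 8.90 at 5 μg/mL and 8.44 at 20 μg/mL. All 4 of these values were well above background, and the middle dose was the highest. TXNIP was therefore 2.96-fold, 13.9-fold and 10.1-fold higher than in the control at the low, middle and top EEDS dose. The step down from 5 to 20 μg/mL was 0.47 (log2), which is less than the SD between the control arrays. By its ratio TXNIP held rank 241 of 19046 genes at the low dose, rank 12 at the middle dose and rank 117 at the top dose.

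In the helveticoside series the level of TXNIP was 3.31 in the control, 5.67 at 3.75 nM, 8.16 at 15 nM and 9.04 at 60 nM. The control and the 3.75 nM array were not well above background and have no order, and of the other arrays the top dose was the higher, in contrast to EEDS. Therefore only lower bounds can be given for the ratios, set against the lowest signal well above background on the control array. TXNIP was at least 6.09-fold higher at 15 nM and at least 11.2-fold higher at 60 nM, where the measured log2 ratios were 4.85 and 5.73. No fold is given for 3.75 nM, with a measured log2 ratio of 2.35. These bounds hold for the processed signal, from which the scanner software had subtracted the background. With the signal as scanned the log2 ratio at 60 nM was 2.70, after normexp correction 2.80 and among the deposited processed values 2.46, all under the bound of 3.49 on the log2 scale, and against the EEDS control it was 3.94. At 20 μg/mL EEDS the ratio was 1.87 with the signal as scanned and 1.97 after normexp correction. The measured values of the 2 vehicle controls differed by 1.79 (log2) for TXNIP, with the helveticoside control the lower, and by 0.72 for ARRDC4.

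ARRDC4, the closest relative of TXNIP in regulation by glucose, was higher at each successive dose of EEDS. Its level in the EEDS series was 5.32, 6.36, 7.40 and 8.72 from the control to the top dose, all well above background. The ratios correspond to 2.04-fold, 4.21-fold and 10.5-fold. In the helveticoside series the levels were 4.61, 4.91, 6.37 and 7.88, of which the control and the 3.75 nM array were not well above background, so that no order can be read between these. ARRDC4 was at least 1.76-fold higher at 15 nM and at least 5.00-fold higher at 60 nM, with measured log2 ratios of 1.76 and 3.27. At 60 nM the log2 ratio was 1.605 with the signal as scanned, 1.71 after normexp correction and 1.49 among the deposited processed values, again under the bound of 2.32. At 20 μg/mL EEDS it was 2.05 with the signal as scanned and 2.11 after normexp correction. Unlike TXNIP, ARRDC4 had no plateau between the middle and the top EEDS dose, with a step of 1.32 (log2).

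**Figure D1:**
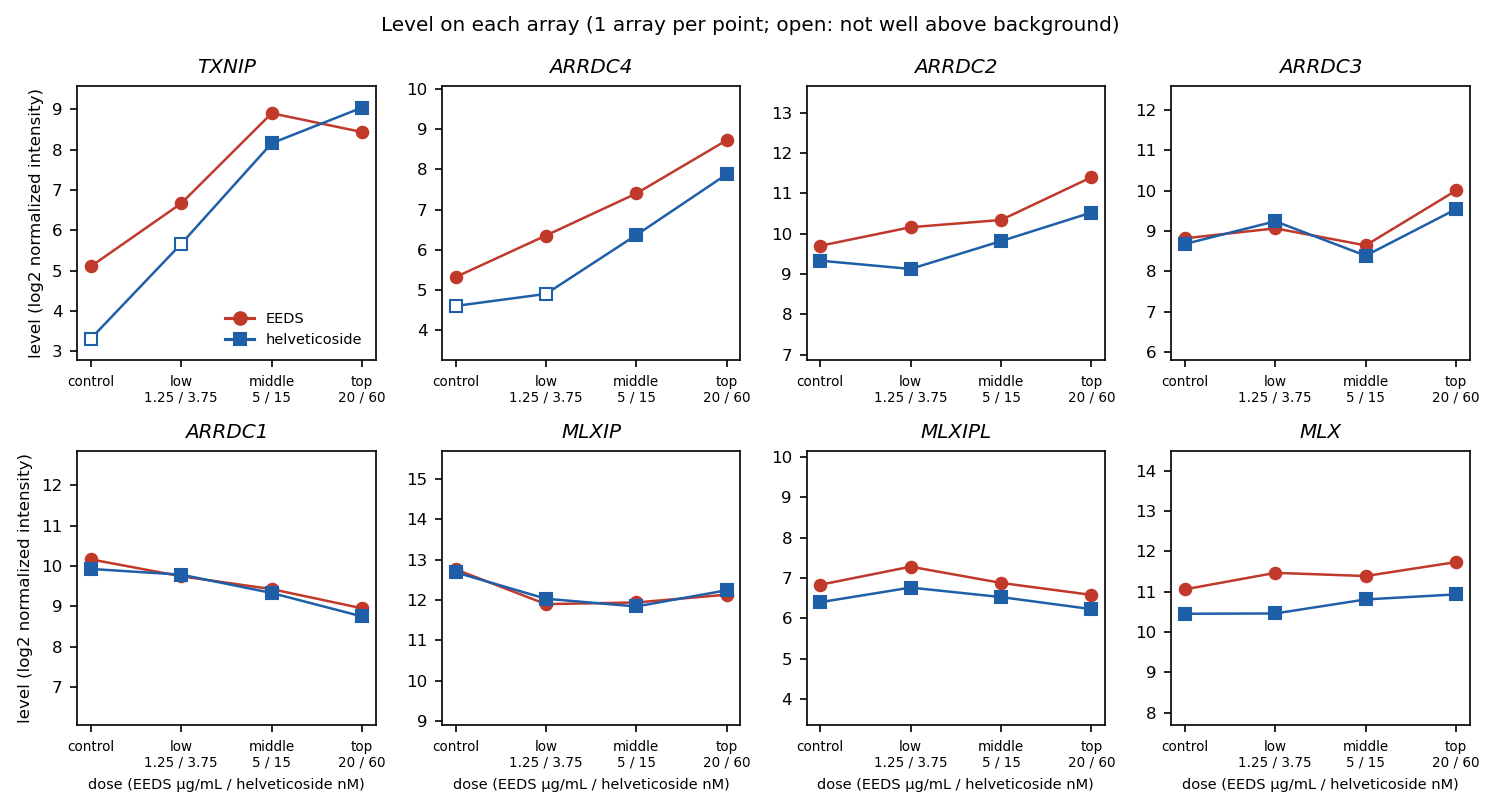
Level (log2 normalized intensity, y axis) of the 7 genes and of MLX on each array against the dose (x axis), with EEDS in red circles and helveticoside in blue squares; every panel spans the same log2 range, each point is 1 array, and open symbols mark arrays not well above background. TXNIP and ARRDC4 go from at most 5.32 in the controls to between 7.88 and 9.04 at the top doses, while ARRDC1 descends in both series.

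ARRDC2, an α-arrestin, was above its control in the EEDS series at every dose, with levels of 9.70, 10.16, 10.34 and 11.40. At 20 μg/mL it was 3.25-fold higher. With helveticoside the levels were 9.33, 9.13, 9.82 and 10.53, so that the lowest dose lay 0.20 (log2) under the control and the top dose was 2.29-fold higher. With both agents the differences at the low and middle doses, from -0.20 to 0.64 (log2), were within the SD between the control arrays.

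ARRDC3, an adaptor for β-adrenergic receptor and integrin β4 turnover, did not follow the dose order with either agent. Its levels were 8.82, 9.07, 8.64 and 10.01 with EEDS and 8.68, 9.24, 8.39 and 9.54 with helveticoside. In both series the middle dose was the lowest and the top dose the highest. ARRDC3 was 2.28-fold higher at 20 μg/mL EEDS and 1.82-fold higher at 60 nM helveticoside, and its ratios at the lower doses, from -0.29 to 0.56 (log2), were within the SD between the control arrays.

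ARRDC1, which recruits TSG101 and NEDD4 family ligases to budding microvesicles, was the member that fell. Its levels descended with each dose, from 10.16 through 9.74 and 9.42 to 8.95 with EEDS and from 9.92 through 9.78 and 9.33 to 8.75 with helveticoside. Each single step, from -0.14 to -0.58 (log2), was within the SD between the control arrays. So were the ratios to the control at 1.25 μg/mL EEDS and at 3.75 and 15 nM helveticoside. At the top doses ARRDC1 was 2.32-fold and 2.26-fold lower than in the controls.

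MLXIP, the gene of MondoA, was read by 2 probes, which disagreed. The probe with the higher mean signal, used in the counts and fits, gave 12.76, 11.90, 11.94 and 12.13 with EEDS and 12.69, 12.03, 11.84 and 12.24 with helveticoside, so that every treated array was below its control. The ratios were between -0.44 and -0.86 (log2) and none reached 2-fold. The other probe gave 7.80, 7.68, 7.92 and 8.77 with EEDS and 8.14, 7.74, 7.85 and 8.78 with helveticoside. By that probe MLXIP was 1.96-fold higher at 20 μg/mL EEDS and 1.56-fold higher at 60 nM helveticoside, the opposite direction, while both probes read the lowest doses below the controls. Which transcripts each probe reads was not examined, and the direction for MLXIP is not settled.

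**Figure D2:**
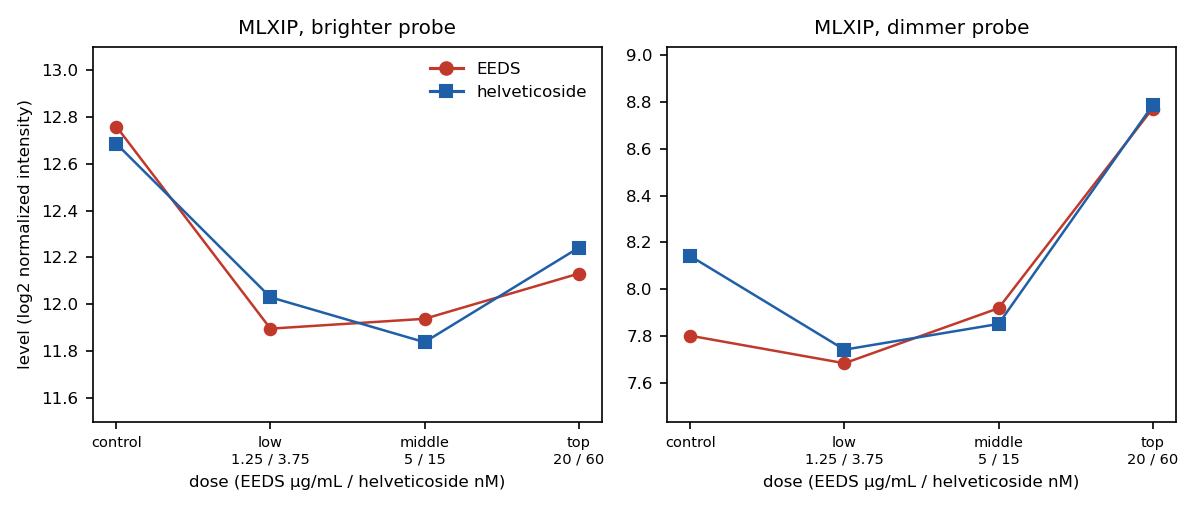
Levels (log2 normalized intensity, y axis) of MLXIP by the probe with the higher mean signal (left) and by the other probe (right) against the dose of EEDS (red circles) or helveticoside (blue squares), 1 array per point; the y axes differ in offset and span the same range. The first probe lies below both controls at every dose, and the second is at 8.77 and 8.78 at the top doses, above both controls.

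MLXIPL, the gene of ChREBP, changed little. Its levels were 6.83, 7.28, 6.88 and 6.58 with EEDS and 6.40, 6.76, 6.52 and 6.23 with helveticoside. The lowest dose was the highest and the top dose the lowest in both series, and all 6 ratios, from -0.25 to 0.45 (log2), were within the SD between the control arrays. MLX, the shared partner of MondoA and ChREBP, was 1.598-fold higher at 20 μg/mL EEDS and 1.39-fold higher at 60 nM helveticoside. The second of these differences, 0.48 (log2), was within the SD between the control arrays. For MLX the helveticoside control lay 0.61 (log2) below the EEDS control. Neither dose trend of MLX passed (limma adjusted p = 0.0891 with EEDS and 0.124 with helveticoside). ARRDC5, the remaining ARRDC gene, was not well above background on any of the 8 arrays.

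Counted over 2-fold, 2 of the 7 genes (TXNIP and ARRDC4) differed from the control at 1.25 μg/mL EEDS, where 7.88% of all genes did. The same 2 genes did so at 5 μg/mL, against 15.8% of all genes. At 20 μg/mL the count was 5 of 7, against 27.8% of all genes. Of these, 4 were higher (TXNIP, ARRDC2, ARRDC3 and ARRDC4; 13.3% of all genes) and ARRDC1 was lower (14.5%). With helveticoside, measured ratios were past 2-fold for TXNIP alone at 3.75 nM (7.68% of all genes), where it was not well above background, for TXNIP and ARRDC4 at 15 nM (15.1%), where the bound for ARRDC4 was under 2-fold, and for 4 genes at 60 nM (23.6%). At 60 nM TXNIP, ARRDC2 and ARRDC4 were higher (10.8% of all genes) and ARRDC1 was lower (12.8%). The median log2 ratio of the 7 genes was 1.19 at 20 μg/mL EEDS and 0.86 at 60 nM helveticoside, beside 0.02 and -0.0040 over all genes tested.

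**Figure D3:**
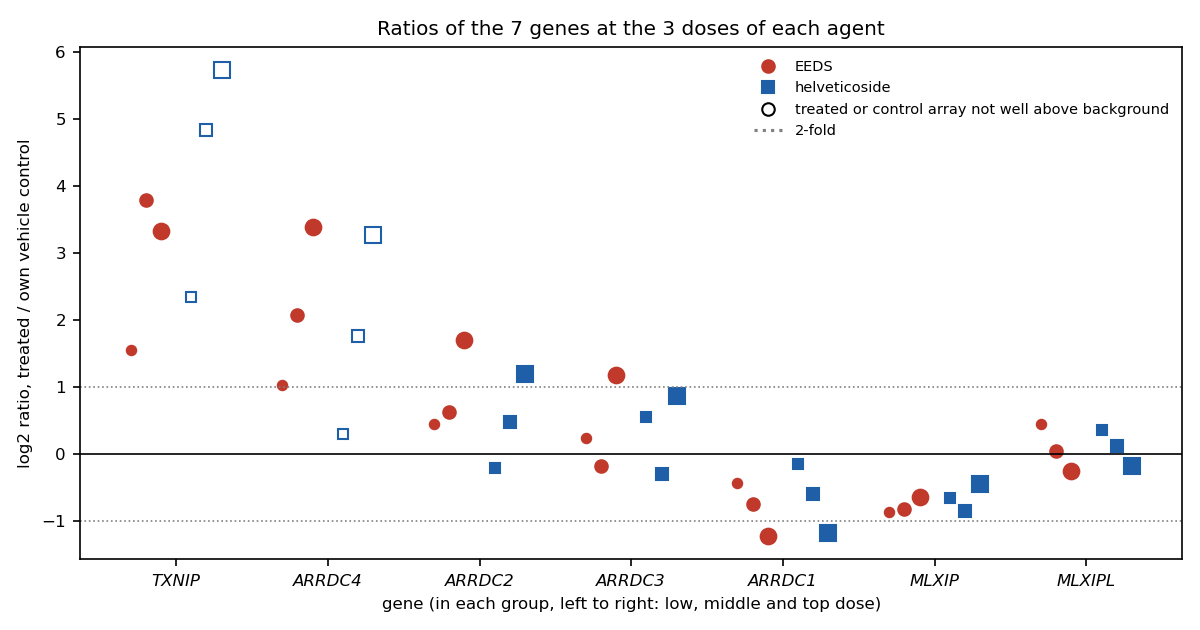
Log2 ratio of each treated array to its own vehicle control (y axis) for the 7 genes (x axis) at the low, middle and top dose, drawn from left to right with growing symbols, for EEDS (red circles) and helveticoside (blue squares); open symbols mark ratios with an array not well above background and dotted lines mark 2-fold. The measured ratios of TXNIP and ARRDC4 stand above the upper line at the middle and top doses of both agents, and ARRDC1 crosses the lower line at the top doses only.

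Dose trends were tested across all genes with limma, as a slope of the level per dose step from the control (step 0) to the top dose (step 3) in each series, and p-values were adjusted by the Benjamini-Hochberg procedure over 19046 genes. With 1 array per dose, the SEs and p-values rest on the scatter about straight lines, pooled over both series, and not on replicates. A dose pattern that bends adds to this scatter. With EEDS, 4 of the 7 genes had a trend at an adjusted p under 0.05, beside 15.1% of all genes. Of these, 3 were rising (7.27% of all genes) and ARRDC1 was falling (7.85%). ARRDC4 rose by 1.12 ± 0.14 (log2 per step ± SE; limma adjusted p = 0.0147), TXNIP rose by 1.22 ± 0.29 (adjusted p = 0.0481) and ARRDC2 rose by 0.53 ± 0.13 (adjusted p = 0.0490). ARRDC1 fell, with a slope of -0.40 ± 0.06 (adjusted p = 0.0197). With helveticoside, 3 of the 7 genes had a trend, beside 11.3% of all genes, namely 2 rising (5.48% of all genes) and ARRDC1 falling (5.8%). TXNIP rose by 1.97 ± 0.29 per step (limma adjusted p = 0.0231) and ARRDC4 by 1.13 ± 0.14 (adjusted p = 0.0185), both from controls not well above background, and ARRDC1 fell with a slope of -0.40 ± 0.06 (adjusted p = 0.0249). ARRDC2 had a helveticoside slope of 0.43 ± 0.13 and missed the threshold (limma adjusted p = 0.0924). ARRDC3 (adjusted p = 0.397 with EEDS and 0.721 with helveticoside), MLXIP (0.480 and 0.610) and MLXIPL (0.609 and 0.799) did not pass in either series.

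No difference between the helveticoside and the EEDS slope was called by limma for any of the 7 genes (0 also at an unadjusted p under 0.05), and for no gene on the array after adjustment (0%; at an unadjusted p under 0.05 it was 525 of 19046 genes, or 2.76%). The doses of the agents were not matched, so that slopes per dose step do not compare equal exposures. A difference near 0 does not show equal responses. For TXNIP the helveticoside slope was higher by 0.75 per step, with a 95% interval from -0.29 to 1.78 (limma unadjusted p = 0.127). This slope starts from a control not well above background, and among the deposited processed values the difference turned to -0.335. For ARRDC4 the difference was 0.0032, with an interval from -0.50 to 0.50. Its sign turned under 6 of 11 alternatives, and it was -0.576 among the deposited processed values, outside that interval. For ARRDC1 the difference was -0.0029, with an interval from -0.22 to 0.21. The interval for ARRDC2 ran from -0.55 to 0.35. The calls of a trend rest on all 8 arrays: no gene on the array passed in limma when any 1 dose was left out of both series, or when each series was fitted alone, whereas between 3259 and 5400 genes had an unadjusted p under 0.05 in these fits.

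**Figure D4:**
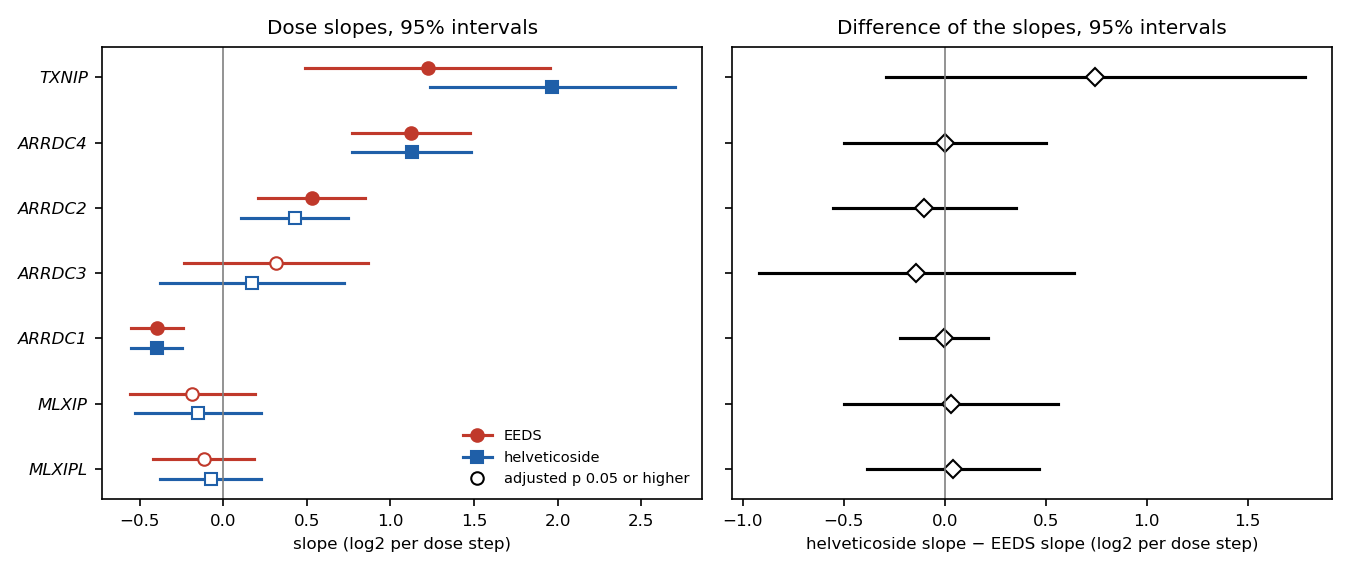
Slope per dose step (log2, x axis, left) of the 7 genes with EEDS (red circles) and helveticoside (blue squares), and the helveticoside slope minus the EEDS slope (right); bars are 95% intervals from limma and open symbols on the left mark an adjusted p of 0.05 or higher. Every interval of the difference spans 0, and that of TXNIP is the widest, from -0.29 to 1.78.

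Of 11 genes of the MLX network (MLX, MAX and the MYC, MXD and MNT factors that share these partners), 5 were past 2-fold at 20 μg/mL EEDS (27.8% of all genes) and 5 at 60 nM helveticoside (23.6%), in both directions. The helveticoside count holds MYCN, not well above background on the control or the top array, and MYCL, not well above background on the top array. It was 3 without these and 3 among the deposited processed values, and the EEDS count was 3 with the mean of all probes. MXD1, a repressor of this network, rose with both agents. Its log2 ratios were 1.38, 1.71 and 2.87 over the EEDS doses and 0.82, 1.44 and 2.24 over the helveticoside doses (limma adjusted p = 0.0132 and 0.0195). MXD4, a related repressor, fell to ratios of -1.59 and -1.77 at the top doses (limma adjusted p = 0.0212 and 0.0217). MNT, another repressor of the network, was 1.49 and 1.43 (log2) higher at the top doses. It did not pass the trend test with either agent (limma adjusted p = 0.0849 and 0.0943). Over the genes well above background on the control and the top array, the median log2 ratio at the top dose was -0.11 with EEDS (10 genes) and 0.34 with helveticoside (9 genes), beside 0.04 and 0.34 over all 11.

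Other genes that carbohydrate response factors are known to drive did not share one direction with TXNIP and ARRDC4. Of 21 measured with EEDS, 2 were over 2-fold higher and 4 lower at the top dose, and of 22 measured with helveticoside, 1 was higher and 3 were lower, beside 27.8% and 23.6% of all genes past 2-fold in either direction. The helveticoside count of 4 was 2 with the signal as scanned, after normexp correction and among the deposited processed values, and 8 against the control of the EEDS series. The median log2 ratios were -0.10 and -0.15, or -0.38 over the 12 genes and -0.41 over the 11 genes well above background on the control and the top array. KLF10, a repressor in the glucose response, had log2 ratios of 0.31, 0.96 and 3.10 with EEDS (limma adjusted p = 0.0388) and 0.18, 0.89 and 2.29 with helveticoside (adjusted p = 0.0832). ACACB, the acetyl-CoA carboxylase of the mitochondrial surface, fell with both agents, to ratios of -2.69 and -2.56 (limma adjusted p = 0.0132 and 0.0165). FASN, fatty acid synthase, had ratios of -1.34 and -0.97 and passed neither trend test (adjusted p = 0.0855 and 0.107). KHK, ketohexokinase, chosen for naming after its values were seen, was at least 5.78-fold lower at 20 μg/mL EEDS and at least 3.26-fold lower at 60 nM helveticoside, both arrays on which it was not well above background. Over the 15 other genes whose promoter window held the paired E-box pattern, 13 were well above background on all 8 arrays. Of these 13, 2 were over 2-fold higher and 2 lower at the top EEDS dose, and 1 was higher and 2 were lower at the top helveticoside dose. These 4 and 3 genes of 13 are close to the shares of all genes past 2-fold, 27.8% and 23.6%. Those shares also count genes that were not well above background.

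The thioredoxin system, whose central protein TXNIP binds, held no measured gene past 2-fold at either top dose (27.8% and 23.6% of all genes), although with scaling to the 75th percentile 2 were past it with EEDS and 1 with helveticoside, and against the control of the other series 2 and 3. None of the 13 genes had a dose trend by limma, and 3 had an unadjusted p under 0.05 in each series, with ratios between -0.87 and 0.92 (log2) for EEDS and between -0.92 and 0.57 for helveticoside. TXN itself had top-dose ratios of 0.29 and 0.33. TXNRD1, the cytosolic thioredoxin reductase, had ratios of 0.92 and 0.53 (limma adjusted p = 0.0601 and 0.141), and SRXN1, which restores oxidized peroxiredoxins, -0.87 and -0.68 (adjusted p = 0.0744 and 0.177).

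AMP-activated protein kinase marks TXNIP protein for degradation, and 3 of its 6 measured subunits were over 2-fold higher at both top doses (13.3% of all genes with EEDS and 10.8% with helveticoside), a count that was 3 under all 9 alternatives tried. The regulatory subunit PRKAB1 had log2 ratios of 0.57, 1.38 and 2.33 with EEDS and 0.35, 1.13 and 2.20 with helveticoside, and rose with both (limma adjusted p = 0.0140 and 0.0179). PRKAG2, a subunit that senses AMP, rose to 1.93 and 1.55 (adjusted p = 0.0272 and 0.0421). PRKAB2 was at 2.12 and 1.76 without passing the trend test (adjusted p = 0.0611 and 0.0836). The catalytic subunits PRKAA1 and PRKAA2 had top-dose ratios of -0.12 and 0.40 with EEDS and -0.11 and 0.55 with helveticoside.

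Of 11 NEDD4 family ligases and adaptors, the class that the PPxY motifs of the arrestins recruit, 3 had a rising dose trend by limma with each agent (7.27% of all genes with EEDS and 5.48% with helveticoside) and none a falling one (2 with EEDS and 0 with helveticoside at an unadjusted p under 0.05). SMURF1 rose to ratios of 1.84 and 2.01 (limma adjusted p = 0.0144 and 0.0165) and the adaptor NDFIP2 to 0.95 and 1.001 (adjusted p = 0.0438 and 0.0403). WWP1, a ligase that binds ARRDC proteins, had ratios of -0.69 and -0.61 (adjusted p = 0.0963 and 0.172). Among the other arrestins, ARRB2 fell with EEDS to -1.13 (limma adjusted p = 0.0263) and was at -0.75 with helveticoside (adjusted p = 0.0770). ARRB1, named after its values were seen, was 8.14-fold lower at 20 μg/mL EEDS and at least 3.28-fold lower at 60 nM helveticoside.

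SLC2A1, the GLUT1 transporter that TXNIP helps to internalize, had log2 ratios of 0.75, 1.31 and 1.10 over the EEDS doses and 0.56, 1.44 and 1.39 over the helveticoside doses. The middle dose was the highest in both series, as for TXNIP with EEDS. Each time it exceeded the top dose by less than the SD between the control arrays. The SLC2A1 trends missed the threshold (limma adjusted p = 0.0960 and 0.0603). Of 17 measured glucose transporters and hexokinases, 2 were past 2-fold with EEDS, where 27.8% of all genes were (SLC2A1 higher, and SLC2A12 lower with a top array not well above background) and SLC2A1 alone with helveticoside, where 23.6% were. FOXO1 and FOXO3, factors known to bind the TXNIP promoter, had top-dose ratios of 0.13 and 0.48 with EEDS and 0.90 and 0.40 with helveticoside, all under 2-fold.

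**Figure D5:**
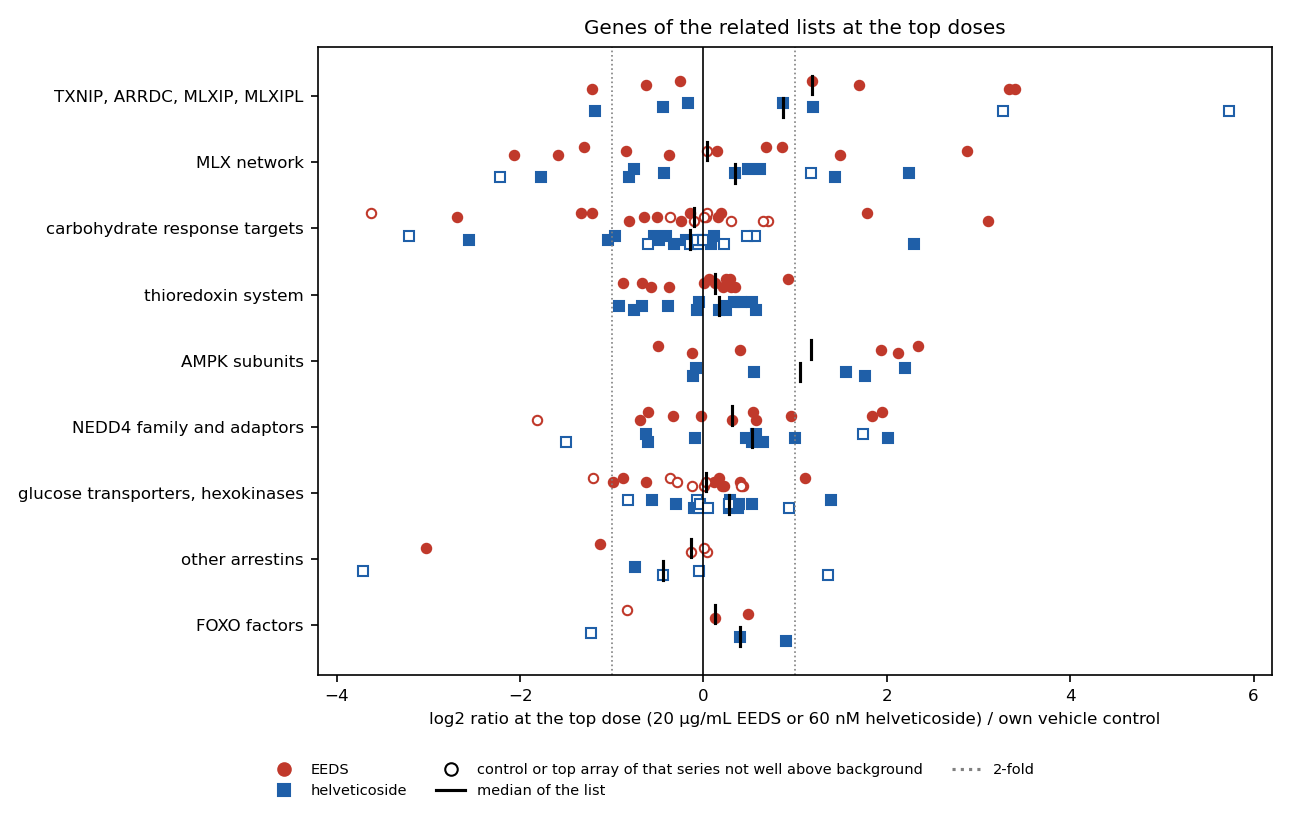
Log2 ratio at the top dose of each agent (x axis) for the genes of the related lists (y axis), with EEDS in red circles and helveticoside in blue squares, black bars at the medians over all listed genes drawn and dotted lines at 2-fold; open symbols mark genes with a control or top array of that series not well above background. The 13 genes of the thioredoxin system lie between the dotted lines, and TXNIP with helveticoside, at 5.73, lies furthest to the right.

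Patterns were also compared by the Euclidean distance between the 6 log2 ratios of a gene and those of a member, among 11492 other genes well above background on all 8 arrays. No distance is given for TXNIP and ARRDC4, since their helveticoside ratios rest on a control not well above background. Nearest to ARRDC1 were TBC1D1 (0.16) and the phosphofructokinase gene PFKM (0.19), and nearest to ARRDC2 were CHD7 (0.23) and WDR45B (0.25). Nearest to ARRDC3 were KLHL36 (0.58) and TICRR (0.60), to MLXIP PRR7 (0.20) and SPECC1 (0.27), and to MLXIPL NUAK1 (0.21) and MANBA (0.22). The MLXIP distances rest on the probe with the higher mean signal, and the other probe went the opposite way at the top doses. Distances grow with the size of the ratios, and all genes share the same arrays and controls.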

How the data were processed

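RNA from A549 cells was hybridized to 8 single-channel Agilent arrays, 4 per series. The labels give 48 h of exposure and the methods text a shorter one. For each array the authors deposited scanner intensities per spot (signal, local background and a background-subtracted processed signal) with calls for outlier, saturated and well-above-background spots. They also deposited a table of quantile-normalized intensities, used as an alternative. The processed signal was averaged over spots of a probe without control and outlier spots, quantile-normalized over the 8 arrays and put on the log2 scale. Between 246 and 331 spots per array were outliers and 0 were saturated, and 54.5% to 64.9% of probes were well above background. Precision is limited by the array number. Of 34127 probes, 24812 were matched to 1 RefSeq gene by accession. For 4797 genes with several probes, the probe with the highest mean was taken. The filter required 1.4 times the local background on 1 or more of the 4 arrays in a series, and undetected values were raised to the lowest detected signal of their array. Slopes were fitted with limma 3.58.1 (R 4.3.3; an intercept and slope per series, trend and robust estimation, 4 residual degrees of freedom), p-values were adjusted over all genes, and the threshold was 0.05. On simulated data for the EEDS trend (19046 genes, 200 changed), 83 genes were called, 79 of them truly changed. The share recovered was 61% at a slope of 1 and 18% at 0.5. In the data 15.1% of genes were called, and the simulated noise was independent and Gaussian about straight lines. The shares recovered therefore need not hold for the data. Python 3.11.15 with numpy 2.4.6 and pandas 2.3.3 served for the rest. The members, gene lists and tests were chosen with earlier results of these data known. Named beyond the members were MLX, ARRDC5, up to 3 genes per list by their mean change at both top doses among genes well above background there, and the genes nearest to each member well above background on all arrays. Other names were chosen after their values were seen.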

Additional observations from a re-analysis of the deposited data

How the results depend on the processing

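At the top doses, 5 of the 7 genes were past 2-fold with EEDS and 4 with helveticoside under background handling, scaling, filter and probe choices, except as follows. Restricting the genes to those well above background on all 8 arrays removed TXNIP and ARRDC4 and left 3 genes past 2-fold with EEDS and 2 with helveticoside, and 2 with an EEDS trend. Against the vehicle control of the other series the counts were 4 and 3. At a 1.5-fold threshold they were 6 and 5. At a 4-fold threshold 2 genes remained with each agent in the main values, TXNIP and ARRDC4. That threshold was not combined with the other choices. TXNIP at 20 μg/mL EEDS was under 4-fold with the signal as scanned (log2 ratio 1.87) and after normexp correction (1.97). ARRDC4 at 60 nM helveticoside was under it with both (1.60 and 1.71) and among the deposited processed values (1.49). No gene had a limma dose trend without the lowest, the middle or the top dose of both series, or when only the 4 arrays of a series were fitted (0 of the 7 in each case, and 0 of all genes tested). At an unadjusted p under 0.05 between 3 and 5 of the 7 genes passed in these fits; they hold fewer arrays. ARRDC2 lost its EEDS trend without trend and robust estimation (adjusted p = 0.0501) and gained one with helveticoside after normexp correction (0.0475) and among genes well above background on all 8 arrays (0.0407).

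Background handling moved the TXNIP and ARRDC4 ratios, as given with those genes, and TXNIP at 60 nM helveticoside was 4.98 (log2) with scaling to the 75th percentile. Scaling to the 75th percentile moved the median of all genes by up to -0.36 (log2) at 20 μg/mL EEDS.

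Slopes near 0 changed sign, and the cause was not tested. With the mean of all probes MLXIP had slopes of 0.0651 (EEDS) and 0.0257 (helveticoside) and a difference of -0.0394; its difference was -0.0131 without the top dose. Without the top dose ARRDC3 had slopes of -0.0878 and -0.145 and MLXIPL 0.0230 and 0.0636. The slope difference of ARRDC4 was -0.126 as scanned, -0.111 with normexp, -0.0901 with 75th percentile scaling, -0.576 in the deposited values, -0.0592 without the lowest dose and -0.157 without the top dose. That of ARRDC1 was 0.0235 with 75th percentile scaling, 0.0521 in the deposited values, 0.0203 without the lowest dose and 0.0711 without the top dose. That of MLXIPL was -0.0431 as scanned and -0.0537 with normexp, and that of TXNIP was -0.335 in the deposited values. No paired analysis was possible because each condition had 1 array. The bounds and the other MLXIP probe were added after seeing the data.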
